A study of Mus musculus with 4 samples.

Results

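The cells described here are E12.5 gut epithelial cells that carried Onecut2 RNA. They were chosen by measured RNA counts in the embryonic day 12.5 (E12.5) library, with 6 conditions on each cell barcode: at least 500 detected genes, at most 20% mitochondrial UMIs, at least 8000 UMIs, at least 1 Epcam UMI, at least 2 Onecut2 UMIs and at most 1 Postn UMI. A UMI (unique molecular identifier) stands for 1 captured RNA molecule. The conditions were met by 1434 of the 5216 deposited E12.5 barcodes, and by 42.0% (exact binomial 95% interval 40.4% to 43.7%) of the 3412 cells that had the same depth and at least 1 Epcam UMI. They are called Onecut2 cells below. The whole series holds 22731 barcodes.

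The series measured RNA in single intestinal epithelial cells of mice with the genotype Bmi1-GFP, a reporter of the Polycomb gene Bmi1, isolated by flow cytometry for Bmi1 expression. Embryos of E12.5 and E17.5, adult mice and irradiated adult mice gave 1 library each, and all 4 groups carried the reporter. At E12.5 the intestine was dissected under a microscope, and cells were captured with version 3 of the 10x 3' chemistry. How many embryos were pooled, their sex, the sorting gates and the radiation dose are not given in the sources used here. The E12.5 cells come from 1 library, so cells are not replicates, no test between groups of cells was possible, and each interval below covers counting error only. The number of barcodes shared between any pair of libraries was 6 to 12, and 7 Onecut2 cells carried a barcode that also occurs in another library.

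Onecut2 encodes a transcription factor with a cut domain and a homeodomain, and the Onecut family is known for its part in the development of liver, pancreas and other endoderm. In the mid-gestation gut the endoderm is a proliferating epithelium that is being patterned along its length. Gata4 and Pdx1 mark the proximal side, the 5' Hox genes mark the distal side, and Cdx2 marks the intestine as a whole. Plac8 encodes a small cysteine-rich protein, and Rbp4 encodes the carrier of retinol in plasma.

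Sets of E12.5 cells with the same depth filter were set beside the Onecut2 cells. These were all 1992 other E12.5 cells, the 1266 cells with at least 1 Epcam UMI, at most 1 Postn UMI and 0 Onecut2 UMIs (Onecut2-0 epithelium), and the 340 cells with at least 1 Epcam UMI, at least 2 Postn UMIs and at most 1 Onecut2 UMI (Postn epithelium). The last 2 sets are part of the first. A further 288 cells had 1 Onecut2 UMI and 84 had both genes at 2 UMIs or more. Median depth was 26548.5 UMIs in Onecut2 cells, 19198.5 in other E12.5 cells, 18160 in Onecut2-0 epithelium and 20313 in Postn epithelium, so a count threshold on Onecut2 also takes deeper cells. The share of mitochondrial UMIs hardly differed, with medians of 4.22%, 4.62%, 4.61% and 4.74%. Levels are UMIs summed over the cells of a set and given as CPM (UMIs of a gene per 1000000 UMIs of the set), and differences are log2((CPM + 1)/(CPM + 1)).

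The promoters of 4 genes are printed first: Sfrp5 as the gene with the largest difference, Fabp2 as the absorptive gene with the largest, and Nepn and Hoxb8 as a higher and a lower gene that carry a Onecut-type sequence, since Onecut proteins are known to bind the core ATTGAT. Each is the 250 bases before the RefSeq start in the build GRCm38.p6, 5′ to 3′ on the strand of the gene. Capitals mark the word ATTGAT, which reads as ATCAAT on the opposite strand, or the related palindrome ATCGAT. Both strands were searched. Sfrp5 lies on the - strand at chr19:42202253-42202502, Fabp2 on the + strand at chr3:122894822-122895071, Nepn on the + strand at chr10:52391358-52391607 and Hoxb8 on the + strand at chr11:96281655-96281904. The Nepn window lies before the RefSeq start but inside the Nepn gene of GENCODE M21, which runs from 52388972 to 52404625.
Sfrp5: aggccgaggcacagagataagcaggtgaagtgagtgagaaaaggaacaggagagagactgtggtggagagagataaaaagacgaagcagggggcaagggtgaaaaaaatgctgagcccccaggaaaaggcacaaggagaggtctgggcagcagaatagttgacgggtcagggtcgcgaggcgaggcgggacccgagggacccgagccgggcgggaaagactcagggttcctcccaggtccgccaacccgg
Fabp2: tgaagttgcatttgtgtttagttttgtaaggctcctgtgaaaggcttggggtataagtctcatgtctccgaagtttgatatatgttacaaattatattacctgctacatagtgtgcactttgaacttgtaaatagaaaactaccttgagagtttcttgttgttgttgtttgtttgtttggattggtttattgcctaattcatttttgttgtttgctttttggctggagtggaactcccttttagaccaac
Nepn: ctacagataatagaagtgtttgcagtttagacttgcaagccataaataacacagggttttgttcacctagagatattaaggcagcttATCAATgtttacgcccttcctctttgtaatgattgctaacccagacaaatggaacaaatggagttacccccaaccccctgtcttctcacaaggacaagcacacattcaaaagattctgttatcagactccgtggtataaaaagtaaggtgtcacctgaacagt
Hoxb8: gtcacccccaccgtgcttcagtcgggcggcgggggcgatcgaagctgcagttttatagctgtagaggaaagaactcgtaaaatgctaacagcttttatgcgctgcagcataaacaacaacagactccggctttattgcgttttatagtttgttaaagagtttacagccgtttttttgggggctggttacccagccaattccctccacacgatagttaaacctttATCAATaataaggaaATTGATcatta
At least 1 of these 6-base words was present in 7.40% of the 32851 promoters of the RefSeq table and in 8.48% of its 27025 genes. Of the 15 genes highest in Onecut2 cells 12 were in the table and 3 held the word (Nepn, Ifit1, Lypd8), and of the 15 lowest 9 were in the table and 2 held it (Cald1, Hoxb8). A word in a promoter is not a binding site, and its absence from this window says nothing of the factor.

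The Onecut2 level, used by the rule, was 377 CPM in Onecut2 cells, 34.8 in other E12.5 cells, 0 in Onecut2-0 epithelium and 7.51 in Postn epithelium. A Onecut2 cell held 2 to 90 Onecut2 UMIs with a median of 8, and 182 cells had 2 and 112 had 3. The other family members stayed low: Onecut1 was at 4.15 CPM in Onecut2 cells and 3.68 in Onecut2-0 epithelium, and Onecut3 was at 3.03 and 1.80 CPM. The general epithelial markers were present in all sets, and none of the 12 compared passed a 2-fold difference in any of the 3 comparisons. Krt8, a keratin of simple epithelia, was at 807 CPM in Onecut2 cells, 502 in Onecut2-0 epithelium and 521 in Postn epithelium. Several defining genes of other tissues were near 0 in Onecut2 cells: Col1a1 at 0.163, Col1a2 at 0.280, Pdgfra at 0.257 and Dcn at 0.583 CPM for mesenchyme, Pecam1 at 0.210 CPM for endothelium, and Ptprc, the pan-leukocyte marker, at 0. The whole endothelium list of 7 genes summed to 33.8 CPM, of which Egfl7 made 31.6, against 24.9 in other E12.5 cells, 22.1 in Onecut2-0 epithelium and 15.5 in Postn epithelium. The 17 mesenchyme genes summed to 452 CPM, of which Vim made 227. The 10 liver genes summed to 643 CPM in Onecut2 cells and 705 in Onecut2-0 epithelium, and the 12 pancreas genes to 394 and 500. For the set as a whole, these marker values do not go against the label of a gut epithelium. The Onecut2 cells of the small clusters 12 and 15, described further below, depart from it. Cpa1 was at 409 CPM in those of cluster 12, and Sox17 at 303 and Cdx2 at 31.2 CPM in those of cluster 15.

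Plac8 and Rbp4 were the other proposed markers. Plac8 was at 513 CPM in Onecut2 cells, 257 in Onecut2-0 epithelium, 232 in other E12.5 cells and 45.9 in Postn epithelium. Rbp4 was at 754 CPM in Onecut2 cells, 329 in Onecut2-0 epithelium and 470 in other E12.5 cells, but at 814 in Postn epithelium. Plac8 thus separated Onecut2 cells from Postn epithelium, with a log2 difference of 3.45 (3.31 to 3.61), and Rbp4 did not, with -0.11 (-0.15 to -0.07). When each cell was thinned to 8000 UMIs the median Onecut2 cell had 4 Plac8 and 5 Rbp4 UMIs, against 2 and 2 in Onecut2-0 epithelium and 0 and 3 in Postn epithelium.

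Against all other E12.5 cells, the genes highest in Onecut2 cells were Sfrp5, St8sia3, Nepn and Dio3, and the lowest were Hoxb9, Tspan1, Col3a1 and Cald1. Of 9830 genes with a mean of at least 5 CPM over both sets, 43 (0.437%) were at least 2-fold higher and 107 (1.09%) at least 2-fold lower, 1.53% in either direction, and the median log2 difference over all of them was -0.04. These counts describe the cells that the rule chose and are not evidence for it. Genes used by the rule were not taken out of the counts of this and the other comparisons, so Onecut2 itself is counted as higher. The plot of all genes compared shows how few lie past 2-fold.

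**Figure D1:**
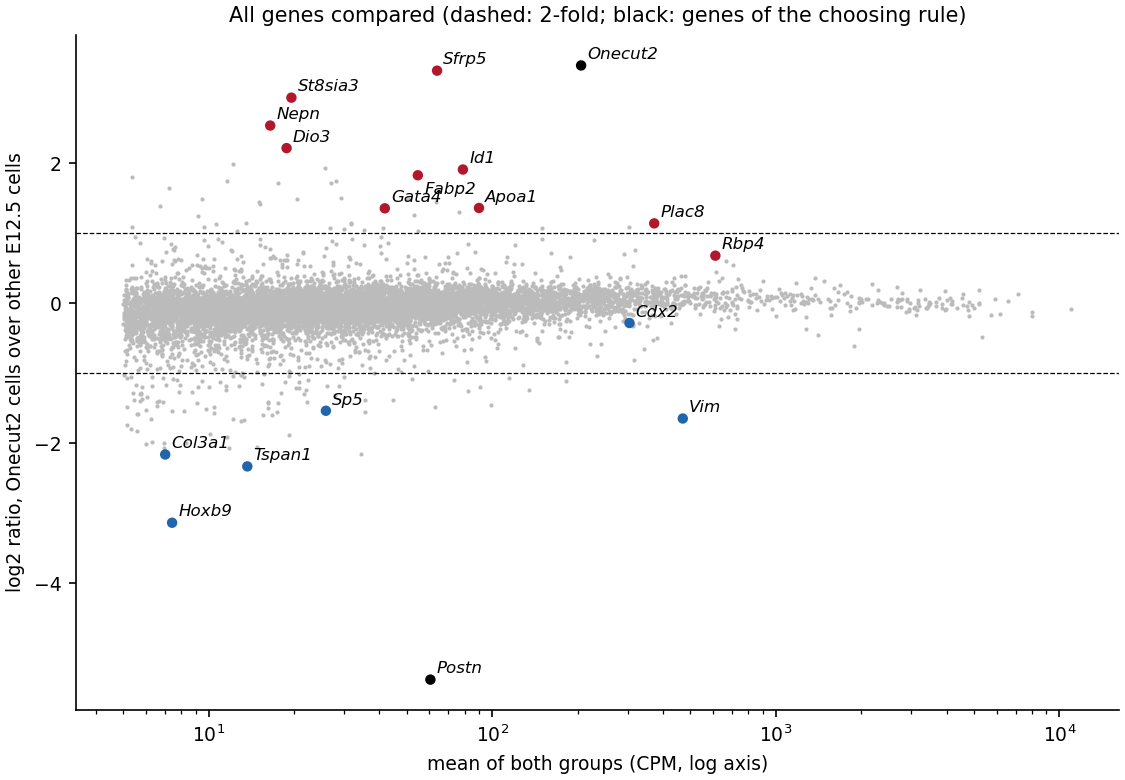
Each point is a gene compared (9830, Onecut2 and Postn among them), with red and blue marking genes described in the text. The x axis is the mean level of both sets (CPM, log axis) and the y axis the log2 difference, Onecut2 cells over other E12.5 cells. Dashed lines mark 2-fold, Onecut2 and Postn in black were used to choose the cells, and most genes lie near the median of -0.04 while Sfrp5 and Hoxb9 lie far from it.

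Sfrp5, a secreted antagonist of Wnt ligands, lies on chromosome 19 from 42197971 to 42202252 on the - strand and had the largest difference among the genes found in at least 10% of Onecut2 cells, Onecut2 itself aside. It was at 117 CPM in Onecut2 cells, 10.8 in other E12.5 cells, 1.84 in Onecut2-0 epithelium and 1.16 in Postn epithelium. Both kinds of epithelium with little or no Onecut2 were thus below the other E12.5 cells, which also hold the cells with 1 Onecut2 UMI and those with both RNAs. The log2 difference was 3.32 (3.20 to 3.45) against other E12.5 cells and 5.38 (5.10 to 5.65) against Onecut2-0 epithelium. Of the 480 Sfrp5 UMIs in other E12.5 cells 389 lay in the 84 cells with both RNAs, and without the Postn limit, which moves these cells to the Onecut2 cells, the first difference was 5.16. The second gene was St8sia3, which encodes a sialyltransferase, at 35.4 CPM in Onecut2 cells and 1.30 in Onecut2-0 epithelium. St8sia3 is a neighbour of Onecut2 on the same strand, 60.4 kb upstream, with no other coding gene between them.

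Nepn, a small leucine-rich proteoglycan gene, was at 28.9 CPM against 4.13 in other E12.5 cells, and 402 of its 1237 UMIs lay in the 85 Onecut2 cells of cluster 11, described further below. Without the 5 small clusters its difference was 2.12, against 2.54 with them. Dio3, which encodes the deiodinase that inactivates thyroid hormone, was at 31.7 against 6.02 CPM, and the transcription factor gene Tfcp2l1 was at 20.1 against 4.29. Tmem215, a membrane protein gene, was at 41.5 against 10.2 CPM. These 4 were also higher than in Onecut2-0 epithelium, where they stood at 2.61, 1.80, 2.68 and 8.43 CPM. Of the 15 genes highest against other E12.5 cells, others were Id1, Fabp2, Ifit1, Tm4sf4, Tm4sf5, Lgals3bp, Lypd8 and Gch1, with differences of at most 1.91.

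**Figure D2:**
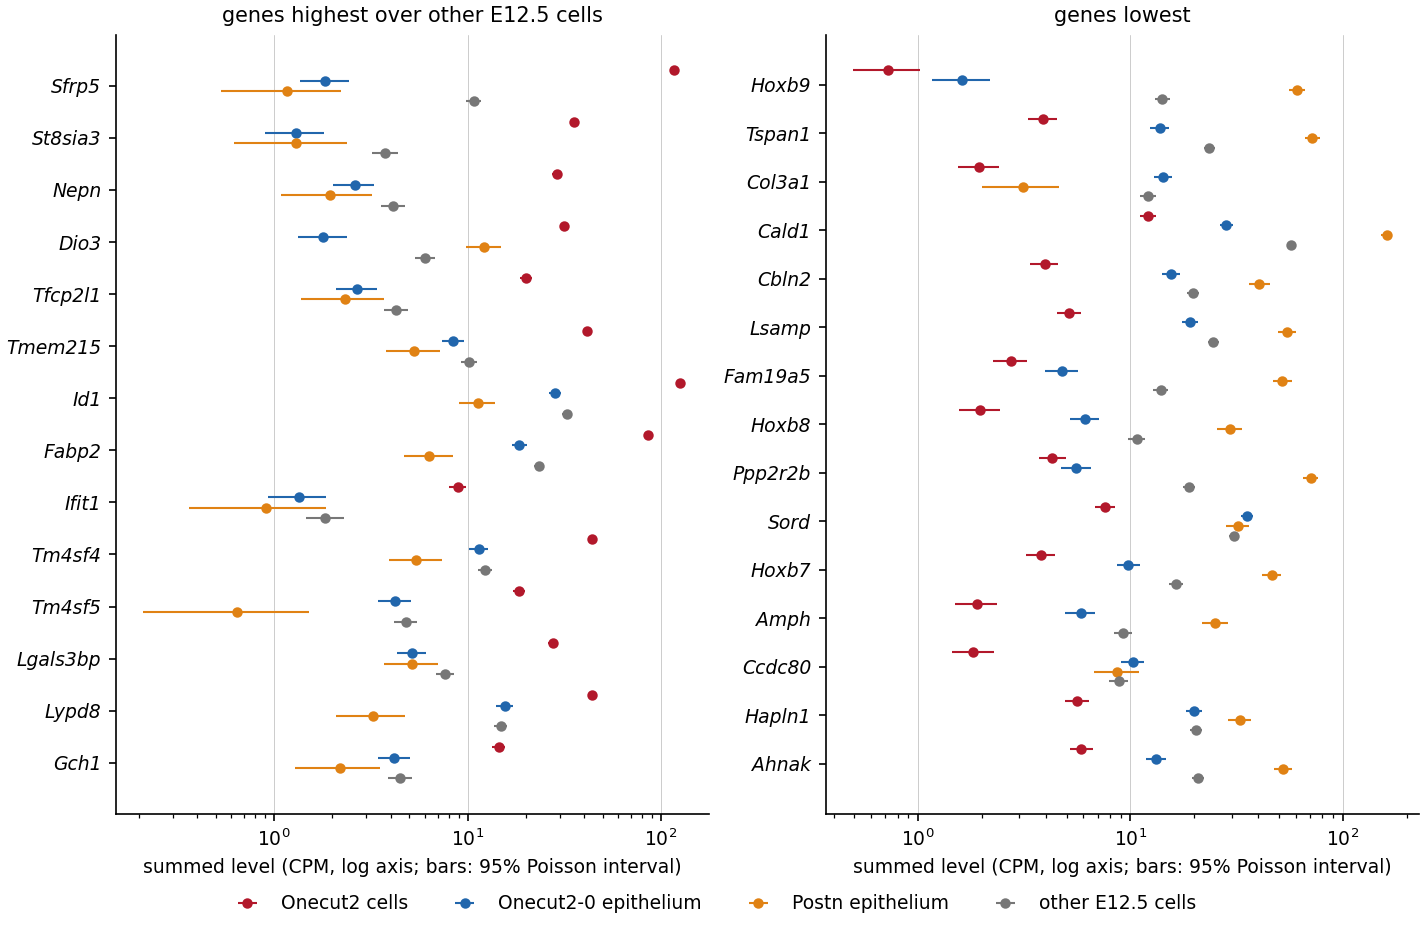
Levels (CPM, log axis) of genes most above and most below 0 in the difference between Onecut2 cells and other E12.5 cells, in 4 sets of E12.5 cells; points are summed levels and bars exact 95% Poisson intervals. Sfrp5 stands at 117 CPM in Onecut2 cells and below 2 CPM in Onecut2-0 and Postn epithelium, while Hoxb9 stands at 60.9 CPM in Postn epithelium and at 0.723 in Onecut2 cells.

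Genes of the absorptive cell were split. Of the 20 genes of the enterocyte list 9 were compared; 3 were at least 2-fold higher and 1 lower than in other E12.5 cells, and the list's median was -0.08 beside -0.04 over all genes. Fabp2, the intestinal fatty acid binding protein gene on chromosome 3 from 122895072 to 122899506 on the + strand, was at 85.9 CPM in Onecut2 cells and 23.4 in other E12.5 cells. Fabp1 was at 44.0 against 19.5 CPM. Cubn, which encodes the receptor for intrinsic factor and vitamin B12, went the other way, at 9.05 against 26.0 CPM. In the list of secreted and lipoprotein genes 1 of 12 compared was higher and 1 lower: Apoa1, the main protein of high-density lipoprotein, was at 130 against 49.9 CPM and the fibrinogen gene Fgb at 5.04 against 15.8.

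Among endoderm transcription factors Gata4 stood apart against other E12.5 cells and Onecut2-0 epithelium. Of the 22 genes of that list 19 were compared, 1 was higher and none was lower than in other E12.5 cells at 2-fold, and the median was -0.11. Against Postn epithelium 3 of 19 were higher at 2-fold (Gata4, Gata5 and Elf3) and none was lower. Gata4, on chromosome 14 from 63198922 to 63271692 on the - strand, was at 60.6 CPM in Onecut2 cells, 23.0 in other E12.5 cells, 21.9 in Onecut2-0 epithelium and 5.56 in Postn epithelium. Its relative Gata6 was at 109, 145, 145 and 160 CPM in the same order, the opposite direction and under 2-fold. Cdx2 was high in every set, at 275 CPM in Onecut2 cells, 338 in Onecut2-0 epithelium and 378 in Postn epithelium, and Shh, the ligand by which gut epithelium signals to mesenchyme, was at 281, 371 and 317 CPM. The endoderm factors Foxa1 and Hnf4a differed from other E12.5 cells by -0.15 and 0.24 on the log2 scale.

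Several genes of the distal gut were lower. Of the 15 genes of the distal list 7 were compared with other E12.5 cells, 4 were at least 2-fold lower and none was higher, and the median was -1.04. With the 5 small clusters described further below left out of both sets, the median was -0.70. Against Onecut2-0 epithelium 3 of 7 were lower, none was higher and the median was -0.60. Osr2, a zinc-finger factor gene, was at 74.2 CPM in Onecut2 cells, 156 in other E12.5 cells, 185 in Onecut2-0 epithelium and 114 in Postn epithelium, and the Wnt receptor gene Fzd10 at 12.2, 26.2, 29.2 and 23.7 CPM in the same order. In the proximal list 9 of 17 genes were compared with other E12.5 cells. Only Gata4 and Fabp1 were at least 2-fold higher, none was lower, 3 were below 0 and the median was 0.05. Against Onecut2-0 epithelium the same 2 were higher, none was lower and the median was 0.25.

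The Hox genes, whose order along their clusters matches their order along the body, showed different profiles in the sets. Summed over paralogs 1 to 4, the level was 58.7 CPM in Onecut2 cells, 32.3 in Onecut2-0 epithelium and 88.5 in Postn epithelium. Over paralogs 5 to 9 it was 18.7, 30.5 and 224.6 CPM, and over paralogs 10 to 13 it was 8.96, 13.9 and 58.7 CPM. The anterior sum of Onecut2 cells was thus above that of Onecut2-0 epithelium and the 2 posterior sums were below it, with intervals that did not overlap. In Onecut2 cells, paralogs 10 to 13 held 384 UMIs. Of these, 151 Hoxb13 and 24 Hoxa13 UMIs lay in the 24 Onecut2 cells of cluster 3, described further below. Of the 39 Hox genes 10 were compared with other E12.5 cells, 1 was higher and 5 were lower at 2-fold. Hoxb2 was at 17.3 CPM against 7.93, and Hoxb9 at 0.723 against 14.2. Hoxb9 on chromosome 11, from 96271457 to 96276595, was at 1.61 CPM in Onecut2-0 epithelium, so its large difference from other E12.5 cells came with the 60.9 CPM of Postn epithelium. Hoxb7 was at 3.78 CPM in Onecut2 cells, 9.77 in Onecut2-0 epithelium and 46.2 in Postn epithelium, and Hoxb8, whose promoter is printed above, at 1.96, 6.09 and 29.4 CPM.

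**Figure D3:**
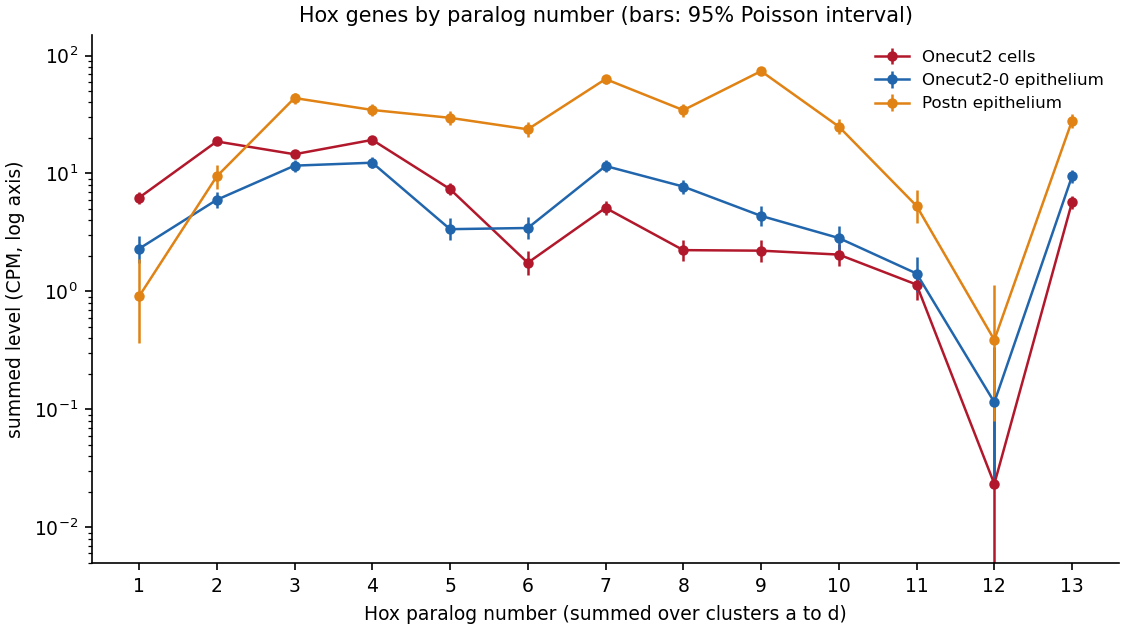
Summed level (CPM, log axis) of Hox genes by paralog number, 1 (anterior) to 13 (posterior), in 3 sets of E12.5 cells, with exact 95% Poisson intervals. The Onecut2 cells lie above Onecut2-0 epithelium at paralogs 1 to 5 and below it from paralog 6 on, and Postn epithelium is highest from paralog 3 on. At paralogs 10 to 12 the intervals of Onecut2 cells and Onecut2-0 epithelium overlap, and at paralog 12 those of all 3 sets do.

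Of the other lower genes several are known from the cytoskeleton and matrix. Vim, the intermediate filament gene, was at 227 CPM in Onecut2 cells, 713 in other E12.5 cells, 818 in Onecut2-0 epithelium and 646 in Postn epithelium. Its log2 difference was -1.85 (-1.88 to -1.81) against Onecut2-0 epithelium. Col3a1, a fibrillar collagen gene, was at 1.94 CPM against 12.1 in other E12.5 cells, and Cald1, which encodes an actin-binding protein, at 12.1 against 57.1. The whole mesenchyme list of 17 genes summed to 452 CPM in Onecut2 cells and 1014 in other E12.5 cells, and of its 5 genes compared 2 were lower at 2-fold (Col3a1, Vim). The part of mesenchymal RNA in the Vim and Col3a1 differences was not tested. Tspan1, a tetraspanin gene, was at 3.87 against 23.5 CPM and Sord, the sorbitol dehydrogenase gene, at 7.60 against 30.7.

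The comparison with Onecut2-0 epithelium keeps the other conditions of the rule equal, Onecut2 apart. Of 9805 genes compared 62 (0.632%) were at least 2-fold higher in Onecut2 cells and 110 (1.12%) at least 2-fold lower, 1.75% in either direction. The median log2 difference over all 9805 was -0.04. Besides Sfrp5, St8sia3, Dio3, Nepn and Tfcp2l1, the 10 highest were Slc2a3, Cmtm8, Epha4, Lgals3bp and Etv4. Slc2a3, a glucose transporter gene, was at 75.1 CPM in Onecut2 cells and 13.8 in Onecut2-0 epithelium, yet at 73.6 in Postn epithelium. Cmtm8 was at 109 against 20.7 CPM and the ephrin receptor gene Epha4 at 22.5 against 3.64. The 10 lowest were Col3a1, Nebl, Sord, Ccdc80, Sp5, Adamts16, Ptn, Vim, Tinag and Irx2. Ptn, a secreted growth factor gene, was at -1.93, and at -1.08 without the 5 small clusters.

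Signalling genes differed by pathway. In the list of FGF, EGF, BMP and PDGF genes 19 of 28 were compared with Onecut2-0 epithelium, 6 were higher and none was lower at 2-fold, and the median was 0.05. Fgf9, a ligand that gut epithelium sends to mesenchyme, was at 48.1 against 14.7 CPM. The FGF target genes Etv4 (13.5 against 2.15 CPM), Etv5 (10.3 against 2.41) and Spry2 (12.2 against 2.45) were also higher. In Postn epithelium, however, Etv4 was at 13.7, Etv5 at 26.7 and Spry2 at 22.6 CPM. Id1 and Id3, known targets of BMP signalling, were at 125 and 74.7 CPM in Onecut2 cells, 28.2 and 23.4 in Onecut2-0 epithelium and 11.3 and 6.21 in Postn epithelium. Bmp2, a ligand of the pathway, was at 4.46, 7.59 and 40.4 CPM. Of the 3204 Id3 UMIs in Onecut2 cells 899 lay in the 85 cells of cluster 11, described further below. The Onecut2 cells of cluster 7 had Id3 at 85.5 CPM, but those of cluster 0 had 13.3, below the level of Onecut2-0 epithelium.

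Wnt and stem cell genes leaned lower than in Onecut2-0 epithelium. Of 18 listed 10 were compared, 3 were lower and none was higher at 2-fold, and the median was -0.64, beside -0.04 over all genes. The Wnt target gene Sp5 was at 12.8 CPM in Onecut2 cells, 53.2 in Onecut2-0 epithelium and 6.08 in Postn epithelium. Lgr5, the receptor of crypt stem cells, was at 5.30, 12.8 and 8.54 CPM, and Axin2, a feedback inhibitor of the pathway, at 7.53, 12.9 and 5.05. The Iroquois genes Irx1 and Irx2 were at 15.5 and 8.30 CPM against 50.9 and 31.2 in Onecut2-0 epithelium. None of the 5 Notch genes and none of the 8 hedgehog genes compared passed 2-fold.

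Of the 12 pancreas genes 8 were compared with Onecut2-0 epithelium and 2 were at least 2-fold lower (Cpa1, Nkx6-1), and of the 16 endocrine genes 4 were compared and 2 were lower (Isl1, Chgb). None was higher, and the medians were -0.41 and -0.96. Chgb, a granin of endocrine cells, was at 2.17 CPM against 16.6 in Onecut2-0 epithelium, and Neurog3 (0.117 against 0.575) and Neurod1 (0.443 against 2.38) were too low to be compared. Cpa1, an acinar enzyme gene, was at 12.1 against 34.4 CPM, with Ptf1a at 1.68 against 2.95. Pdx1, the factor of pancreas and duodenum, was at 15.4 CPM against 9.81 in Onecut2-0 epithelium and 1.55 in Postn epithelium. Without the 5 small clusters the Pdx1 difference from Onecut2-0 epithelium was 2.60, against 0.60 with them.

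The comparison with Postn epithelium had the most genes past 2-fold. Of 9960 genes compared 138 (1.39%) were at least 2-fold higher in Onecut2 cells and 339 (3.4%) at least 2-fold lower, 4.79% in either direction, so that 28.9% of the genes past 2-fold were higher, and with TMM factors 39.7% were (181 higher and 275 lower). The 10 highest were Sfrp5, St8sia3, Fabp2, Tm4sf5, Plac8, Lypd8, Id3, Id1, Nepn and Gata4, with log2 differences of 3.23 to 5.77. The 10 lowest were Hoxb9, Gata3, Tspan1, Fam19a5, Ppp2r2b, Avpr1a, Cd44, Cald1, Hoxb5 and Foxd2, from -5.17 to -3.49. Gata3, a zinc-finger factor gene, was at 0.840 CPM in Onecut2 cells and 26.7 in Postn epithelium. In the list of regenerative and fetal genes 5 of 10 compared were lower and 1 was higher, Clu being at 19.1 against 74.3 CPM, Ly6a at 0.513 against 10.4 and Spp1 at 27.9 against 5.05. Of the 1198 Spp1 UMIs in Onecut2 cells, however, 356, 436 and 351 lay in the small clusters 11, 12 and 15, and Spp1 was at 1.59 CPM in Onecut2 cells of cluster 7.

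Proliferation was high in all sets. Among the 15 genes of the G2/M list 14 were above 0 against Onecut2-0 epithelium, none passed 2-fold and the median was 0.25. The proliferation marker Mki67 was at 177 CPM in Onecut2 cells, 148 in Onecut2-0 epithelium and 183 in Postn epithelium. After thinning to 8000 UMIs, 91.4% (89.8% to 92.8%) of Onecut2 cells, 77.7% (75.3% to 80.0%) of Onecut2-0 epithelium and 73.5% (68.5% to 78.1%) of Postn epithelium had at least 3 UMIs over that list. Unthinned, the shares were 95.5%, 86.4% and 81.5%. None of the 17 S phase genes passed 2-fold against either set. Depth before thinning moved with these shares, and its part was not tested.

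The reporter did not separate the Onecut2 cells from Onecut2-0 epithelium, and it was lower in Postn epithelium by less than 2-fold. The transcript named eGFP was at 24.5 CPM in Onecut2 cells, 23.6 in Onecut2-0 epithelium and 14.4 in Postn epithelium, and Bmi1 itself at 14.7, 16.9 and 12.4 CPM. None of the 16 genes of Polycomb repressive complex 1 passed 2-fold in any comparison. Early response genes, which can move with tissue dissociation, summed to 1949 CPM over 12 genes in Onecut2 cells and 2451 in Onecut2-0 epithelium, and 9 of 11 compared were below 0.

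Levels were also read along the number of Onecut2 UMIs per cell, the count that the rule used, so they are a description of the choice and no support for it. Among cells with at most 1 Postn UMI, Sfrp5 was at 1.84 CPM with 0 Onecut2 UMIs, 5.11 with 1, 15.7 with 2 and 20.2 with 3, then 54.1 with 4 to 7, 103 with 8 to 15 and 222 with 16 or more. Vim was at 818, 589, 378, 278, 295, 206 and 145 CPM over the same steps. Cells just outside the limit, with 1 UMI, thus lay between those with 0 and those with 2 for both genes. Gata4, a proximal factor, went from 21.9 CPM in the first step to 72.6 in the last, and Id1 from 28.2 to 192 CPM. Sp5 went from 53.2 to 8.03 CPM and Irx1 from 50.9 to 6.64. Id3 and Nepn were also highest in the last step but fell between some earlier steps. Id3 was at 23.4, 21.8, 10.8, 26.0, 34.8, 66.5 and 138 CPM over the steps. Nepn was at 2.61, 2.48, 3.99, 24.4, 8.76, 22.9 and 56.5 CPM. Hoxb9 had no order along the steps and stayed between 0.219 and 2.63 CPM. Median depth over the steps was 18160, 20144.5, 19374.5, 20415.5, 22603, 27521 and 36054 UMIs, so depth moved with the upper steps and its part was not tested. Among cells with 15000 to 30000 UMIs in every set, a range chosen after seeing the data, the Sfrp5 difference from Onecut2-0 epithelium was 5.78 and that of Gata4 was 1.67, beside 5.38 and 1.43 in all cells.

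**Figure D4:**
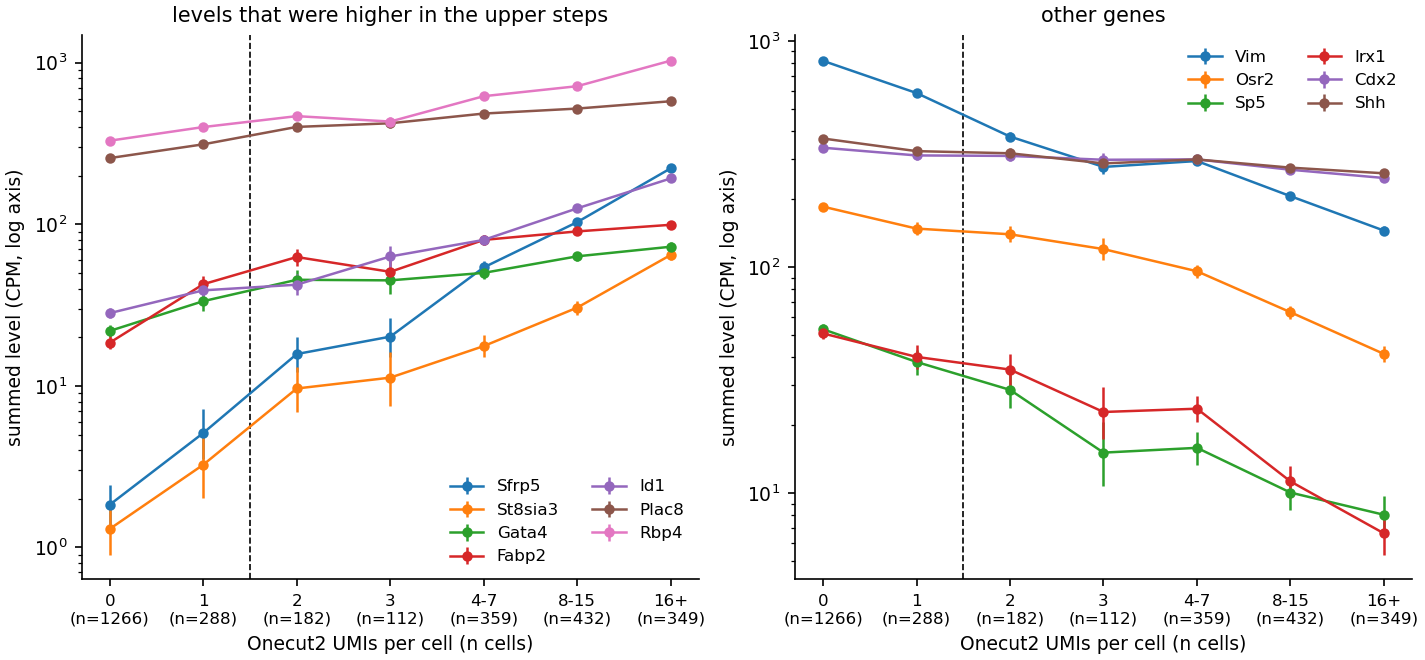
Levels (CPM, log axis) of selected genes in E12.5 epithelial cells with at most 1 Postn UMI, by the number of Onecut2 UMIs in the cell (n cells under each step), with exact 95% Poisson intervals; the dashed line is the limit of the choosing rule. Sfrp5 goes from 1.84 to 222 CPM and Vim from 818 to 145 CPM between the first and the last step. Cdx2 and Shh fall by less, from 338 to 248 and from 371 to 260 CPM.

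Cells near the other limits were few. The 81 Onecut2 cells with 1 Postn UMI had Plac8 at 447, Gata4 at 42.8 and Hoxb9 at 2.83 CPM, beside 517, 61.7 and 0.594 CPM in the 1353 with none. The 13 cells with 2 Postn UMIs, just outside, had 347, 54.7 and 8.55 CPM. The 84 cells with 2 or more UMIs of both genes had a median of 42207 UMIs, and Scrublet, a doublet caller, put 28.6% of them among its putative doublets, against 5.30% of Onecut2 cells. At the depth limit, the 18 Onecut2 cells with the fewest UMIs (median 8958) had Sfrp5 at 248 CPM, and the 14 cells just under the limit (median 7186.5) that met the other conditions had 308.

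Clustering without Onecut2, Postn and Epcam showed how the Onecut2 cells vary among themselves. The 3426 cells of the depth filter gave 16 clusters, and 71.9% of Onecut2 cells (1031) lay in the 6 clusters where they were the majority. Clusters are called by number and leading genes and were given no cell type name. Those with the highest share included cluster 7, led by Sfrp5, Slc2a3 and Apoa1, where 318 of 324 cells were Onecut2 cells, and cluster 9, led by the same first 2 genes and Dio3, with 203 of 211. Clusters 6 (242 of 303, led by Fabp2, Mki67 and Top2a) and 8 (170 of 252, led by the S phase genes Ung, Ccne1 and Cdc6) came next by number, with cluster 6 holding more Onecut2 cells than cluster 9. Onecut2 cells in cluster 7 had Sfrp5 at 184 CPM and Vim at 79.8, while the 90 Onecut2 cells in cluster 0 had 12.2 and 436 CPM. Clusters 10 and 13, led by Postn epithelium genes such as Hoxb9 and Cald1, held 3 and 2 Onecut2 cells.

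**Figure D5:**
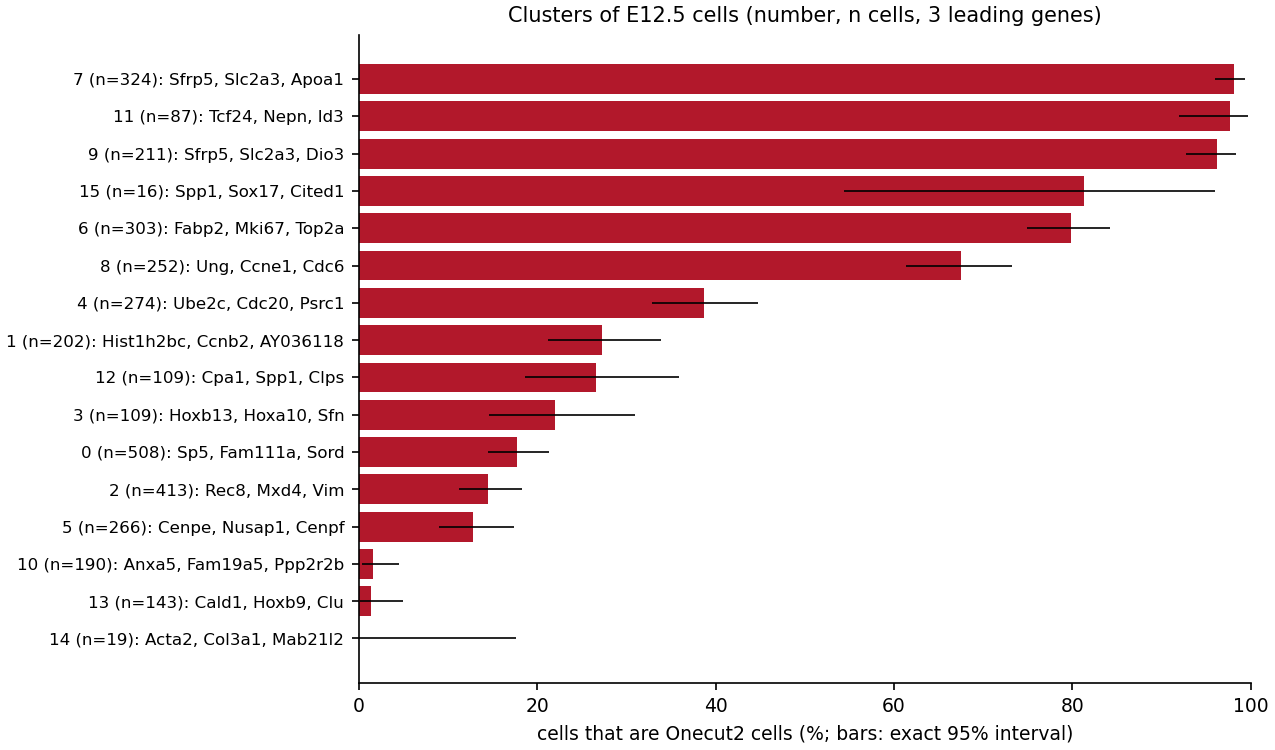
Share of Onecut2 cells (x axis, %) in each of the 16 clusters of E12.5 cells, with exact 95% binomial intervals; labels give the cluster number, its number of cells and its 3 leading genes. Clusters 7, 9 and 11 are above 96% Onecut2 cells and clusters 10, 13 and 14 are below 2%.

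Small clusters led by genes of other regions or organs held 151 Onecut2 cells (10.5%). Cluster 11 (85 of 87 cells) was led by Tcf24, Nepn, Id3, St8sia3 and Pdx1, and its Onecut2 cells had the highest levels of Onecut2 (1154 CPM), Sfrp5 (413), Rbp4 (1501) and Pdx1 (152) of any cluster, with the stomach-related genes Gkn3 at 58.2 and Nkx6-2 at 70.7 CPM. Cluster 12, led by the pancreas genes Cpa1, Spp1 and Clps, held 29 Onecut2 cells of 109, with Cpa1 at 409, Ptf1a at 56.2 and Nkx6-1 at 63.5 CPM. Cluster 3, led by Hoxb13 and Hoxa10, held 24 of 109, with Hoxb13 at 191 CPM. Cluster 15 held 13 of 16, led by Spp1, Sox17 and Cited1, and its Onecut2 cells had Sox17 at 303, Cdx2 at 31.2 and Plac8 at 40.1 CPM. Cluster 14, led by Acta2 and Col3a1, held none of its 19 cells.

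Applied to each of the other libraries, the 6 conditions took 1181 of 2970 deep epithelial cells (39.8%) at E17.5, 766 of 982 (78.0%) among adult cells and 1337 of 1726 (77.5%) after irradiation. Onecut2 over all cells with an Epcam UMI was at 204, 123, 236 and 206 CPM in the libraries of E12.5, E17.5, adult and irradiated mice. Plac8 was at 369, 1059, 1553 and 1225 CPM, and Rbp4 at 611, 814, 757 and 594. With 1 library per stage and medians of 19654, 12888, 4296 and 9499.5 UMIs, these are values side by side and were not tested. Only cells of high depth met the conditions, and depth differs between libraries.

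Genes high in E12.5 Onecut2 cells had unlike levels across stages, read here over all cells with an Epcam UMI in each library. Fabp2 was at 53.8, 2184, 1078 and 335 CPM from E12.5 to the irradiated adult, Lypd8 at 29.1, 1867, 871 and 606, Tm4sf4 at 28.0, 322, 1223 and 1320 and Id1 at 77.5, 213, 532 and 554, so these 4 were lowest at E12.5. Dio3 was at 18.7, 0.710, 0 and 0 CPM, Tmem215 at 25.6, 1.78, 0 and 0, Nepn at 16.6, 1.37, 0.0651 and 0 and Slc2a3 at 53.2, 1.07, 0.586 and 0.0733, highest at E12.5. Sfrp5 was at 63.3, 5.06, 27.3 and 13.2 CPM, and St8sia3 at 19.5, 9.40, 24.0 and 35.8. Tspan1, low in Onecut2 cells at E12.5, was at 106, 211 and 362 CPM in the E17.5, adult and irradiated libraries.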

How the data were processed

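RNA of single cells was measured in 4 libraries. The authors deposited raw UMI counts per gene and barcode, made with Cell Ranger 3.1.0 on the build mm10, per the submitters' processing notes; the rule by which barcodes were called is not given in the sources used here. The E12.5 library held 90674425 UMIs, and the totals of the 4 libraries ranged from 38648331 to 90674425. The cells and gene lists were chosen with earlier results of these data known, and no list or rule counts as independent evidence.

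UMIs were summed over cells and scaled to CPM. Differences are log2 ratios with a pseudocount of 1 CPM, with exact binomial intervals; levels carry exact Poisson 95% intervals. Genes with a mean of at least 5 CPM over both sets were compared, and 2-fold was the threshold. Named genes were the 15 highest and 15 lowest against other E12.5 cells and the 10 highest and lowest in the other comparisons, with a UMI in at least 10% of the higher set's cells; Onecut2, Postn and Epcam were never named as results, nor were Xist, Tsix and Y-linked genes, predicted genes, or those for globins, antibodies, ribosomes and mitochondria. Genes of 32 gene lists were also named. Clusters (Leiden, resolution 1, leidenalg 0.10.2, igraph 0.11.9, scanpy 1.11.5) used 2000 variable genes, 30 components and 20 neighbours. Doublets were scored with Scrublet and kept, except in an alternative that removed 0.8% per 1000 barcodes. Positions come from GENCODE M21 (GRCm38), which matched 30934 of 31054 features by ID, and promoters from RefSeq. The ratio step was tested on simulated counts, drawn per set without variation between cells. Of 200 genes changed per comparison, all by more than 2-fold, 100% had the sign that was put in. Of the true values 93% to 97% lay in their intervals, computed here without the pseudocount of 1 CPM. The intervals with the pseudocount, which are those reported, were not tested in this way. edgeR 4.0.16 (R 4.3.3) gave the TMM factors; python 3.11.15, numpy 2.4.6, scipy 1.17.1 and pandas 2.3.3 did the rest. Alternatives are in the closing section. Some genes of the lists are counted but not reported here by name.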

Additional observations from a re-analysis of the deposited data

How the results depend on the processing

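No paired analysis was possible because each stage has 1 library and no comparison is between replicates. Each comparison was recomputed under 20 alternatives, 2 of them chosen after seeing the data (cells with 15000 to 30000 UMIs, and without the 5 small clusters). The 79 differences of named genes past 2-fold gave 1580 values, 1580 in the same direction and 1559 still past 2-fold. The settings that change only the filter on mean CPM or the fold threshold leave a gene's difference as it was. Their values in this tally repeat the main ones by construction. Most of these genes were also picked as the most extreme in the same data, so the tally is no independent support. The exceptions outside the pseudocount were Rbp4 against Onecut2-0 epithelium, 0.88 without the Postn limit, and Plac8 against other E12.5 cells, 0.94 with the rule applied after thinning. The numbers of genes past 2-fold moved with the thresholds by construction. They are given as higher and lower against other E12.5 cells, Onecut2-0 epithelium and Postn epithelium, in that order. A pseudocount of 10 CPM gave 23 and 20, 28 and 19, 69 and 122. A mean of at least 1 CPM gave 63 and 227, 99 and 207, 220 and 588, no filter gave 64 and 240, 106 and 216, 245 and 619, and at least 20 CPM gave 25 and 28, 30 and 31, 66 and 129. A threshold of 1.5-fold gave 118 and 325, 144 and 336, 330 and 914. At resolution 2, 75.2% of Onecut2 cells lay in clusters where they were the majority. In all, 92 counts stayed within 1.5 times and 28 did not. Without the Postn limit Sfrp5 was at 5.16 and Hoxb9 at -1.89 against other E12.5 cells, since the cells with both RNAs then change sides.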
